A study of Mus musculus with 9 samples.

Results

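The 39 genes described here encode proteins of the cell division cycle and of DNA replication, and were taken from the 55487 genes of the bulk RNA-seq table by gene symbol. All 39 symbols were found once. By role, 2 are the proliferation markers Mki67 and Top2a, 9 are cyclins, cyclin-dependent kinases and the transcription factor E2F1, 8 act in replication licensing and the replicative helicase, and 4 are the replication clamp and enzymes of nucleotide synthesis. A further 8 are mitotic kinases, checkpoint proteins and ubiquitin ligase factors, and the last 8 belong to the centromere, the spindle and cytokinesis. They were followed across genotypes to ask whether transcripts of dividing cells persist in the retina at postnatal day 21, when neurogenesis has ended.

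RNA was measured in whole mouse retina of strain C57 BL/6J in 9 libraries, 3 for each of 3 genotypes, and each library pooled the retinas of a pair of animals. Cre- animals carried no Cre transgene, came from breeders without Cre and are labelled WT, and whether their Tet alleles were floxed is not given in the sources used here. tHet animals carried 1 loxp allele and 1 intact allele at each of Tet1, Tet2 and Tet3, together with a Cre-GFP transgene. Tet tcKO animals carried loxp alleles on both chromosomes at Tet1, Tet2 and Tet3 with the same transgene. The Cre-GFP transgene is active in retinal progenitor cells, is known to be mosaic, and was bred to 2 functional copies in both Cre-positive genotypes. It is not known to act in vessels or microglia. Differences from Cre- therefore cannot be told apart from differences in Cre or in breeding line, whereas tHet shared the Cre transgene with Tet tcKO. Whether tHet and Tet tcKO came from the same line or litters is not given in the sources used here. A whole-gene count still includes the exons that Cre leaves in place, so the Tet genes check the labels only in part: Tet3 lay at 99.2 to 152 CPM in Tet tcKO against 155 to 288 CPM in all other libraries, while the ranges of Tet1 and Tet2 overlapped between genotypes. Levels are in counts per 1000000 reads on genes (CPM), and p-values measure the spread between these pooled libraries.

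A cell enters the cycle when D-type cyclins bind CDK4 or CDK6 and release E2F factors from the retinoblastoma protein. E2F targets include the MCM helicase, CDT1, PCNA and ribonucleotide reductase, which are needed in S phase, while a later wave including CDK1, cyclin B, Aurora kinases and kinesins drives mitosis. In the mouse retina progenitors leave the cycle before and shortly after birth, and the neurons and Müller glia of the mature retina are normally postmitotic.

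The libraries held 9627927 to 21108256 reads on genes, so 1 read was worth 0.0474 to 0.104 CPM and the limit that a count of 0 allows (3 reads) was 0.142 to 0.312 CPM, for counting error only. The library Tet tcKO 3 stood apart because the ribosomal RNA gene CT010467.1 took 28.7% of its reads, against 3.72% in tHet 3 and at most 0.226% elsewhere. Its other genes are read lower on the CPM scale for that reason. For the members, names or values with that gene removed are given where they change whether genotypes overlap.

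Promoter sequence is shown for the members whose levels differed most between genotypes, Mki67 and Top2a, and for Cdk1, the kinase gene of mitotic entry, that lay at few reads in every library. Promoters of genes expressed late in the cycle are known for a CCAAT box, bound by NF-Y, and a cell cycle genes homology region (CHR), and those of S phase genes for E2F sites. The stretches end just before the earliest annotated start and run 5′ to 3′ on the gene's strand, from RefSeq on GRCm38.p6. They lie at chr7:135716380-135716629 (Mki67), chr11:99024190-99024439 (Top2a) and chr10:69352939-69353162 (Cdk1), all on the minus strand. Capitals mark CCAAT, the CHR letters TTTGAA or TTTAAA, and the E2F letters TTTCCCGC, TTTGGCGC, TTTCGCGC or TTTGCCGC, on either strand.
Mki67: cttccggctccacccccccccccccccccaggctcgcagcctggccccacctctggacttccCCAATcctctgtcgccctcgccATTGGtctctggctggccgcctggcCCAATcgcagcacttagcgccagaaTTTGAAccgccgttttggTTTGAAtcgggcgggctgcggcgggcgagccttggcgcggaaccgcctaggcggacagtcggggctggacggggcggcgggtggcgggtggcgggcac
Top2a: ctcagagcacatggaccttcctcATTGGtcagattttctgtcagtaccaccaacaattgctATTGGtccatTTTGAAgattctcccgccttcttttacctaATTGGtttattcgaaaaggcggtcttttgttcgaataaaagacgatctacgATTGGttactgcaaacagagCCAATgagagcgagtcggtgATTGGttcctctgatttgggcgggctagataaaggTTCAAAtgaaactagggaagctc
Cdk1: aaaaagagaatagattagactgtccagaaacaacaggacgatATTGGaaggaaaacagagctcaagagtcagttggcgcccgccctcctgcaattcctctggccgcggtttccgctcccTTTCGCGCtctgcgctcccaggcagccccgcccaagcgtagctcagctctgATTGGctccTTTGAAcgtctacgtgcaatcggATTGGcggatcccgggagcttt

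In the 300-base windows from 250 bases before to 50 bases after each RefSeq start, Mki67 held 3 CCAAT matches and 2 CHR matches. Top2a held 6 and 2, and Cdk1 held 3 and 2 together with 1 E2F match. The Cdk1 stretch stops 26 bases short of the RefSeq start, so its second CHR match, at -15 from that start, is not in the letters shown. Windows were listed for 31 of the 39 genes, 32 windows in all because Mcm7 has a pair of starts. CCAAT was present in 26 of the 32 windows (81.2%, against 37.4% of all 32851 windows), a CHR match in 20 (62.5% against 27.6%) and an E2F match in 7 (21.9% against 2.26%). The member windows held 8 to 48 CpG dinucleotides with a median of 25, and the median over all windows was 7. The letters that the printed promoters share are thus present both in the genes that were higher in Tet tcKO and in Cdk1, and a match is a description and not a bound site.

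Mki67 and Top2a were the only members called in Tet tcKO against Cre-, and both were higher. Mki67 encodes the chromosome-surface protein Ki-67 that marks cycling cells, and Top2a encodes topoisomerase IIα, which untangles replicated chromosomes. Of the 39 members, 31 passed the filter on low values (0.5 CPM in at least 3 of 9 libraries) and were tested with limma on log2(CPM + 0.5), with p adjusted over all 21330 genes tested. A call needed a log2 fold change of 1 or more in size and an adjusted p under 0.01. Of the 31, 2 were called higher and 0 lower, and 3.6% of all tested genes were called in that comparison (2.03% higher, 1.57% lower). The same 2 were the members with an adjusted p under 0.05, a bar that 6.5% of all genes passed. The same 2 members were called by edgeR and by DESeq2 on the recovered reads. Both lay under 0.5 CPM in every Cre- library and passed the filter through the other genotypes. A bulk library cannot tell more cells of a type from more RNA per cell.

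Mki67 (chr7:135689784-135716361, minus strand, GRCm38) lay at 0.353, 0.382 and 0.405 CPM in Cre-, where each library held 6 reads. It lay at 1.15, 1.35 and 2.42 CPM in tHet and at 7.84, 4.35 and 4.46 CPM in Tet tcKO. The 3 genotypes did not overlap, with Cre- lowest, tHet between and Tet tcKO highest, an order that 0.591% of all tested genes shared. The mean of 5.55 ± 1.98 CPM in Tet tcKO (SD, n = 3) was 14.6 times the mean of 0.380 ± 0.0260 CPM in Cre-. The log2 fold change against Cre- was 2.73 (95% interval 2.02 to 3.45, limma adjusted p = 2.66e-05). Without the library Tet tcKO 3 it was 2.85, and with CT010467.1 removed it was 2.88.

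Top2a (chr11:98992943-99024189, minus strand) lay at 0.235, 0.127 and 0.473 CPM in Cre-, or 4, 2 and 7 reads. Its values were 0.504, 0.727 and 0.758 CPM in tHet, or 7, 7 and 16 reads, and 3.09, 2.57 and 1.63 CPM in Tet tcKO. Again the CPM values of the genotypes did not overlap and stood in the same order. However, Cre- 3, tHet 1 and tHet 2 held 7 reads each, so the gap between them came only from library totals. The Cre- mean was 0.278 ± 0.177 CPM and the Tet tcKO mean 2.43 ± 0.741 CPM (SD, n = 3), a ratio of 8.72 on few Cre- reads. The log2 fold change was 1.90 (95% interval 1.22 to 2.59, limma adjusted p = 0.000786). With no filter on low values the adjusted p was 0.0118 and Top2a was no longer called. Its exons share 122 bases with the small RNA gene Gm23451 on the same strand.

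Against tHet, the genotype that shares the Cre transgene with Tet tcKO, no member was called by limma, and 3.0% of all genes were (1.39% higher, 1.61% lower). Mki67 missed the threshold narrowly with a log2 fold change of 1.50 (95% interval 0.78 to 2.21, limma adjusted p = 0.010037), and Top2a had 1.31 (0.62 to 1.99, limma adjusted p = 0.019). These were the 2 members with an adjusted p under 0.05, which 5.95% of all genes had. All Tet tcKO libraries lay above all tHet libraries for 8 members and below them for 1, Cenpe, and over all genes for 7.35% and 9.68%. With CT010467.1 removed, 12 members lay above, adding Cdc20, Cenpf, Mcm7 and Rrm1, and 0 below (18.9% and 8.79% of all genes), and Cenpe overlapped. At an unadjusted p under 0.05, 5 members were higher and 0 were lower, where 6.9% and 10.6% of all genes were. edgeR called 0 members and DESeq2 called 2, Mki67 and Top2a. The call on Mki67 turned on single libraries, being made when Cre- 1, Cre- 2 or tHet 3 was left out (limma adjusted p = 0.0049, 0.00675 and 0.00223) and not when any other library was.

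Between the control genotypes, tHet against Cre-, limma, edgeR and DESeq2 each called 0 members, and 0.0422% of all genes were called by limma. At an unadjusted p under 0.05, 2 members were higher (Mki67 and Bub1b) and 1 was lower (Pcna), where 3.58% and 0.966% of all genes were. Bub1b overlapped between these genotypes, at 27.6, 22.3 and 4.46 CPM in Cre- and 26.0 to 29.0 CPM in tHet, with Cre- 3 far below the rest. No member had an adjusted p under 0.05, which 0.0938% of all genes had. All tHet libraries lay above all Cre- libraries for 3 members (Mki67, Top2a and Tpx2) and below them for Pcna, and over all genes for 5.78% and 5.37%. For Top2a, Cre- 3, tHet 1 and tHet 2 held 7 reads each and were set apart only by library totals. For Mki67 the log2 difference was 1.24 (95% interval 0.52 to 1.95, limma adjusted p = 0.44), and for Top2a it was 0.60 (-0.09 to 1.28). These comparisons share libraries, and their values are given side by side only.

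**Figure D1:**
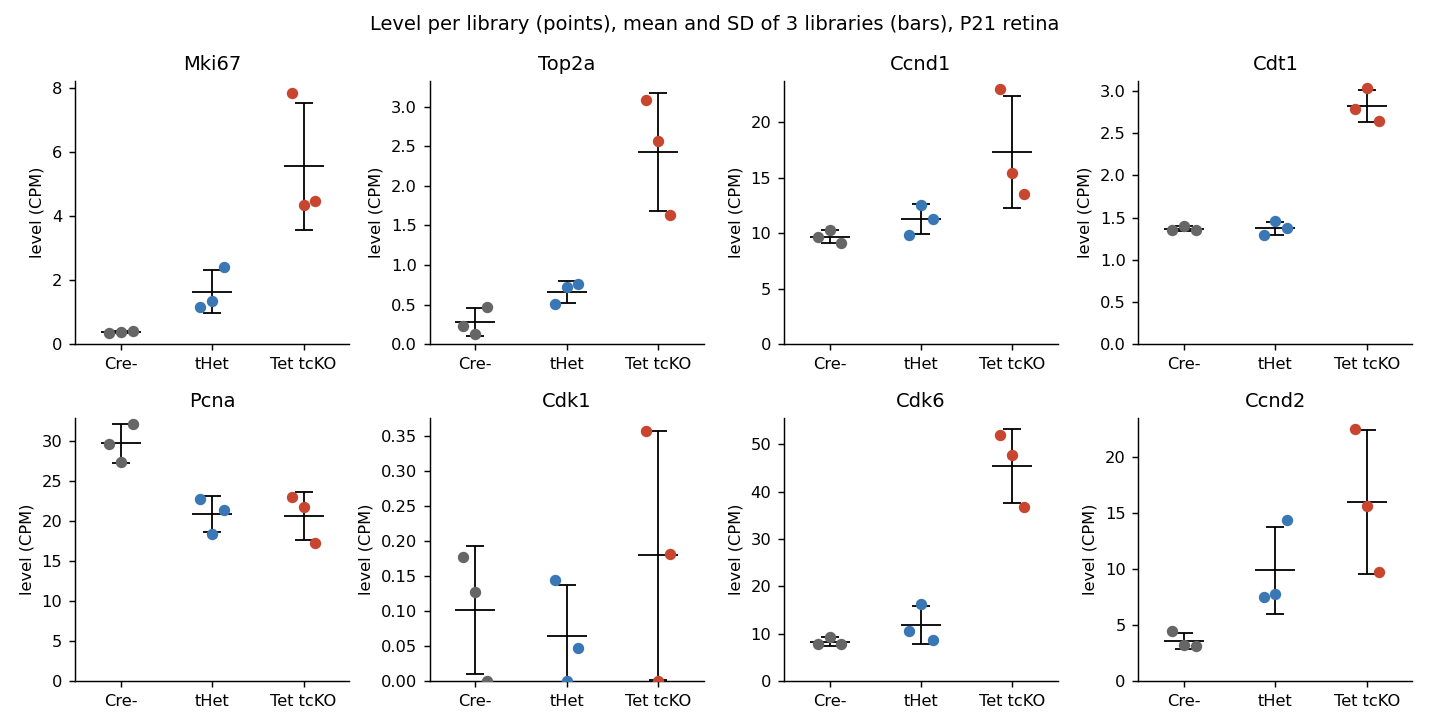
Level in CPM (vertical axis, from 0) of 6 cell cycle members and of Cdk6 and Ccnd2 in the 3 libraries of each genotype, with points for libraries and black bars for the mean and SD. Mki67 and Top2a step up from Cre- to tHet to Tet tcKO without overlap in CPM. For Top2a, Cre- 3, tHet 1 and tHet 2 held 7 reads each. Pcna is lower in tHet and Tet tcKO than in Cre-, and Cdk1 lies at or below 0.356 CPM in every library.

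The other 29 tested members had log2 differences between -0.55 and 0.83 against Cre-, and none was called by limma, edgeR or DESeq2. Over the 31 tested members the median log2 difference was 0.21, with 22 above 0 and 9 below, and over all tested genes the median was 0.00. Removing CT010467.1 from the CPM moved the median of all genes to 0.14 and that of the members to 0.37. At an unadjusted p under 0.05, 4 members were higher (Mki67, Top2a, Ccnd1 and Cdt1) and 1 was lower (Pcna), where 8.59% and 7.47% of all genes were. All Tet tcKO libraries lay above all Cre- libraries for 6 members, adding Mcm3 and Mcm6 to those 4, and below them for Pcna. Over all genes these shares were 10.0% and 9.6%. With CT010467.1 removed, 10 members lay above, adding Ccne2, Mcm2, Mcm7 and Cenpf, and Pcna below (23.3% and 8.19% of all genes). With TMM scaling 8 lay above (14.5% of all genes) and Pcna below.

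**Figure D2:**
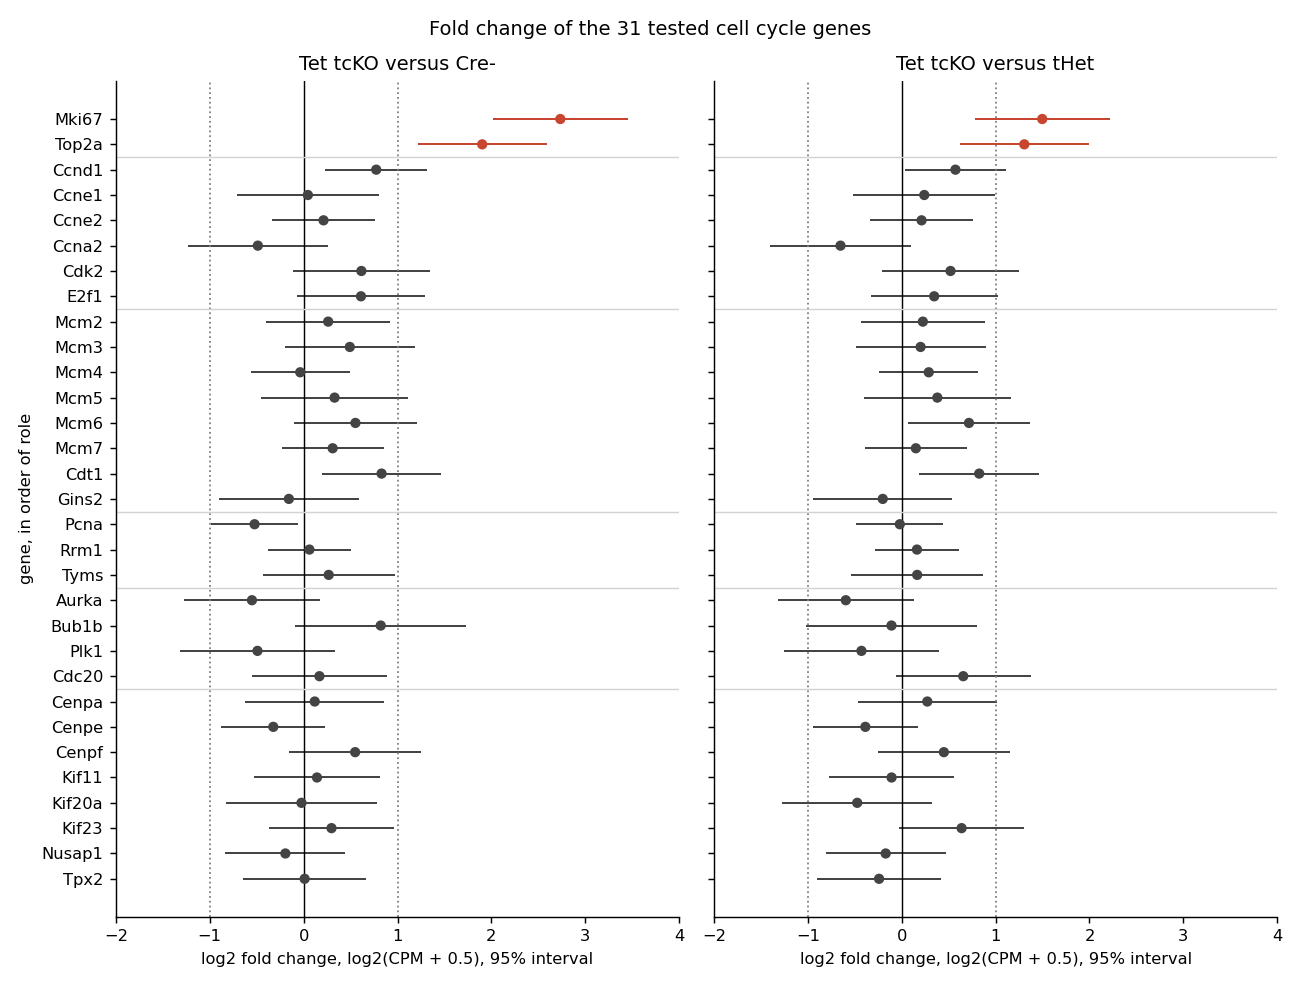
Log2 fold change (horizontal axis, on the log2(CPM + 0.5) scale) of the 31 tested members in Tet tcKO against Cre- and against tHet, with 95% intervals as lines, grey lines between role groups and dotted lines at the fold threshold. Mki67 and Top2a (red) stand at 2.73 and 1.90 against Cre-, and the other members lie between -0.55 and 0.83.

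Among the cyclins and their kinases, 6 of 9 were tested and none was called in any comparison. Ccnd1, the D-type cyclin of retinal progenitors, lay at 9.65, 10.3 and 9.11 CPM in Cre-, 9.87, 12.6 and 11.3 CPM in tHet, and 23.0, 15.4 and 13.5 CPM in Tet tcKO. All 3 Tet tcKO libraries were above the others, with a log2 difference from Cre- of 0.77 (95% interval 0.23 to 1.31) and a limma adjusted p of 0.089. Ccne2, a cyclin E of the G1 to S transition and the most abundant member of the group, lay at 15.0 to 18.8 CPM in Cre-, 15.6 to 19.6 in tHet and 13.8 to 28.7 in Tet tcKO, so the genotypes overlapped. With CT010467.1 removed the Tet tcKO libraries lay at 19.1 to 28.8 CPM, above Cre- and still overlapping with tHet. Ccna2, cyclin A of S phase and G2, had -0.49 (-1.24 to 0.26), and Cdk2, its kinase, had 0.61 (-0.12 to 1.34). Ccne1, the other cyclin E, had 0.04 (-0.71 to 0.80). E2f1, the activator of S phase genes, lay at 0.445 to 1.08 CPM in Cre- and 1.05 to 1.75 CPM in Tet tcKO.

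Of the mitotic cyclins and their kinase, Ccnb1 and Cdk1 were near the detection limit everywhere, and Ccnb2 had 4 to 14 reads per library. Ccnb1, cyclin B1, had 1 read in each Cre- library, 2, 0 and 4 reads in tHet, and 2, 2 and 0 reads in Tet tcKO, which is 0 to 0.189 CPM. Cdk1, which cyclin B activates to start mitosis, had 3, 2 and 0 reads in Cre-, 2, 0 and 1 in tHet, and 6, 0 and 3 in Tet tcKO, or 0 to 0.356 CPM. The libraries of all genotypes overlapped for both genes, and Tet tcKO 2, in which Mki67 had 66 reads, held none of Cdk1. At these counts small changes in either could not be seen. A limma fit with no filter on low values gave adjusted p = 0.864 for Cdk1 and 0.971 for Ccnb1 against Cre-. Ccnb2, cyclin B2, lay at 0.270 to 0.445 CPM in Cre-, 0.288 to 0.727 CPM in tHet and 0.361 to 0.475 CPM in Tet tcKO. All genotypes overlapped, and the mean was highest in tHet.

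All 8 genes of replication licensing and the helicase were tested and none was called. Mcm7, a helicase subunit and the most abundant of them, lay at 11.01, 14.6 and 11.3 CPM in Cre-, 15.6, 15.3 and 10.7 CPM in tHet, and 17.2, 17.5 and 11.7 CPM in Tet tcKO. The overlap came from Tet tcKO 3, which lay at 16.5 CPM with CT010467.1 removed, above the highest library of the other genotypes (15.7 CPM). The summed level of the 8 genes was 43.5 to 59.4 CPM in Tet tcKO, overlapping with the 41.1 to 49.3 CPM of the other libraries. Without CT010467.1 it was 58.4 to 61.0 CPM against 41.1 to 49.3 CPM, and with TMM scaling 51.0 to 56.1 CPM against 40.3 to 47.3 CPM, with no overlap in either. The log2 differences of the 6 MCM subunits from Cre- ran from -0.04 (Mcm4, 95% interval -0.56 to 0.49) to 0.55 (Mcm6, -0.10 to 1.20), with 0.26 for Mcm2, 0.49 for Mcm3 and 0.33 for Mcm5 between them. Cdt1, the factor that loads the helicase and the least abundant of the group, lay at 1.35, 1.40 and 1.35 CPM in Cre- and 1.30, 1.45 and 1.37 CPM in tHet. In Tet tcKO it lay at 2.79, 3.03 and 2.65 CPM, above every other library. Its log2 difference was 0.83 against Cre- (95% interval 0.19 to 1.47, limma adjusted p = 0.133) and 0.83 against tHet (limma adjusted p = 0.136), and neither passed the threshold. Gins2, a GINS subunit that activates the helicase, had -0.16 (-0.90 to 0.58).

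Of the clamp and the nucleotide enzymes, 3 of 4 were tested and none was called. Pcna, the sliding clamp of replication that also serves DNA repair, lay at 29.6, 27.3 and 32.1 CPM in Cre-, 22.8, 18.4 and 21.4 CPM in tHet, and 22.9, 21.7 and 17.2 CPM in Tet tcKO. Cre- was above both other genotypes, which overlapped. The log2 difference from Cre- was -0.52 in Tet tcKO (95% interval -0.99 to -0.06, limma adjusted p = 0.218) and -0.50 in tHet. Between Tet tcKO and tHet it was -0.02 (-0.48 to 0.44), a difference whose sign turned with other scalings. Rrm1, the large subunit of ribonucleotide reductase and the most abundant member of the group, lay at 31.1 to 35.9 CPM in Cre-, 28.5 to 33.5 in tHet and 28.8 to 39.1 in Tet tcKO. With CT010467.1 removed its Tet tcKO libraries lay at 35.4 to 40.4 CPM, above tHet (28.5 to 34.8 CPM) and overlapping with Cre-. With TMM scaling they overlapped with both. Rrm2, the subunit of the same enzyme that is made in S phase, had 0, 1 and 1 reads in Cre-, 2, 0 and 0 reads in tHet, and 3, 3 and 7 reads in Tet tcKO. The Tet tcKO libraries were highest, but the gene was below the filter, and with no filter its log2 difference from Cre- was 0.48 (limma adjusted p = 0.139). Tyms, thymidylate synthase, had 0.27 (-0.44 to 0.97).

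Among the mitotic kinases, checkpoint and ubiquitin ligase genes, 4 of 8 were tested, and neither a call nor an unadjusted p under 0.05 was found against Cre-. Bub1b, a spindle checkpoint protein, was the most abundant at 27.6, 22.3 and 4.46 CPM in Cre-, 27.6, 29.0 and 26.0 CPM in tHet, and 36.7, 27.0 and 16.6 CPM in Tet tcKO. The library Cre- 3 was far below the other 8, and the log2 difference of 0.82 between Tet tcKO and Cre- (95% interval -0.09 to 1.73) became 0.04 without it. Aurka had -0.55 (-1.28 to 0.18), Plk1 -0.49 (-1.32 to 0.34) and Cdc20, an activator of the anaphase-promoting complex, 0.17 (-0.55 to 0.89). Ube2c, the ubiquitin-conjugating enzyme of that complex, had 1 read in all 9 libraries together, in tHet 1. Bub1 had 5, 2 and 7 reads summed over the Cre-, tHet and Tet tcKO libraries. The sums were 5, 9 and 14 for Aurkb, the kinase of the chromosomal passenger complex, and 9, 18 and 22 for its partner Birc5. The 14 Aurkb reads fell as 3, 10 and 1 on the Tet tcKO libraries. Birc5 had 3 reads in each Cre- library (0.177 to 0.203 CPM) and 6, 1 and 11 in tHet (0.104 to 0.521 CPM). In Tet tcKO it had 13, 4 and 5 reads (0.264 to 0.772 CPM). Tet tcKO thus lay above Cre- on as few as 4 reads against 3, near the detection limit and below the filter, and tHet overlapped with both. Over all tested genes 10.0% lay above Cre- in every Tet tcKO library. With TMM scaling or CT010467.1 removed the Tet tcKO libraries of Birc5 still lay above Cre-, while Bub1 and Aurkb overlapped.

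All 8 genes of the centromere, spindle and cytokinesis were tested, and none was called or had an unadjusted p under 0.05 against Cre-. Cenpe, a kinetochore motor and the most abundant, lay at 9.18, 16.8 and 12.5 CPM in Cre-, 15.7, 11.7 and 12.03 CPM in tHet, and 9.80, 9.95 and 9.81 CPM in Tet tcKO. Tet tcKO was below all tHet libraries and overlapped with Cre-. With CT010467.1 removed Tet tcKO 3 lay at 13.8 CPM, within the tHet range of 11.7 to 15.7 CPM, and the separation was lost. Kif23, a kinesin of the cytokinetic midzone and the least abundant, lay at 0.573 to 0.883 CPM in Cre-, 0.379 to 0.727 in tHet and 0.791 to 1.43 in Tet tcKO. Cenpf had 0.55 (95% interval -0.15 to 1.25), Kif11 0.14 (-0.52 to 0.81), Nusap1 -0.19 (-0.83 to 0.44) and Tpx2 0.01 (-0.65 to 0.67). Cenpa, the centromeric histone, had 0.12, and the mitotic kinesin gene Kif20a had -0.02.

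The 8 members below the filter were Ccnb1, Ccnb2, Cdk1, Rrm2, Aurkb, Birc5, Bub1 and Ube2c. Together they had 47, 66 and 89 reads in the Cre-, tHet and Tet tcKO libraries, or 0.989 CPM (exact Poisson 95% interval 0.727 to 1.32), 1.48 CPM (1.14 to 1.88) and 1.83 CPM (1.47 to 2.25) over the pooled reads. These intervals cover counting error only and no test of the sum was made. In the fit with no filter on low values none of the 8 was called by limma in any comparison, and Rrm2 had the lowest adjusted p against Cre- (0.139). For comparison, Mki67 and Top2a together had 31, 110 and 390 reads.

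Levels compared per kilobase of exon spread widely among the members. In Cre-, Pcna was highest at 12.4 CPM per kb, followed by Ccne2 at 4.86 and Bub1b at 4.24, while Mki67 stood at 0.0378 and Top2a at 0.0309, close to Aurkb at 0.0343 and Cdk1 at 0.0205. In Tet tcKO, Mki67 reached 0.551 and Top2a 0.269 CPM per kb, whereas Aurkb stood at 0.102 and Cdk1 at 0.0363. Summed over all 39 members the level was 209 ± 21.8 CPM for Cre-, 214 ± 9.65 CPM for tHet and 238 ± 46.6 CPM for Tet tcKO (SD, n = 3). The Tet tcKO libraries ran from 187 to 278 CPM, and the lowest was Tet tcKO 3. With CT010467.1 removed they ran from 250 to 279 CPM, above the 192 to 234 CPM of Cre- and the 212 to 223 CPM of tHet. With TMM scaling they ran from 218 to 263 CPM. They then overlapped with both Cre-, at 193 to 223 CPM, and tHet, at 194 to 225 CPM.

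**Figure D3:**
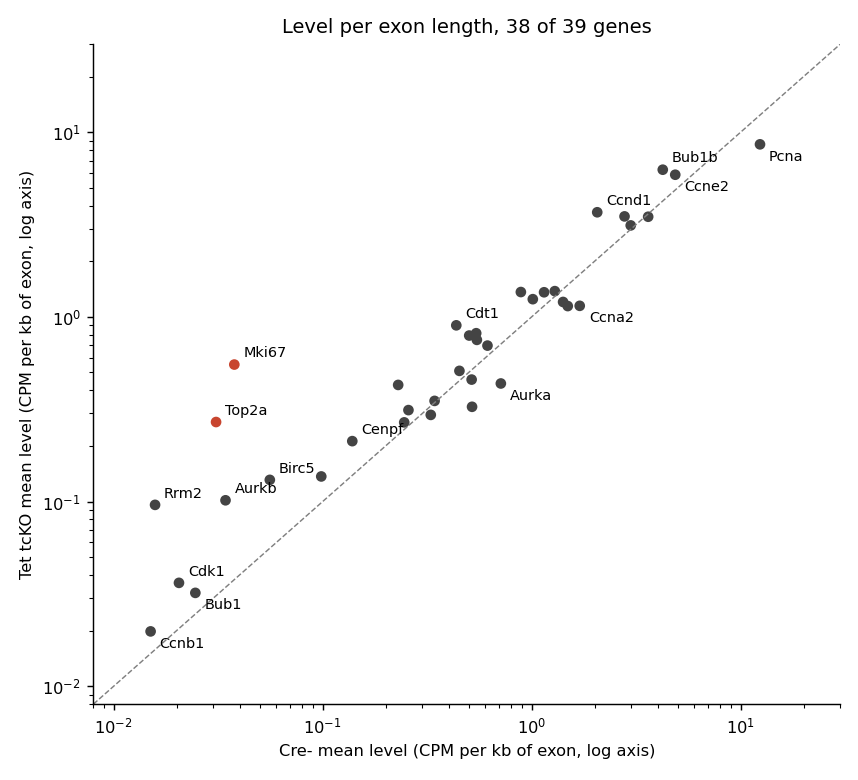
Mean level of 38 members in Cre- (horizontal) against Tet tcKO (vertical), in CPM per kb of exon on log axes, with the dashed line at equality. Ube2c is left out because it had no read in either genotype, and Mki67 and Top2a (red) lie at 0.0378 and 0.0309 in Cre- and 0.551 and 0.269 in Tet tcKO.

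Other cell cycle genes were read from fixed lists. Among 14 further cyclins, kinases and regulators, all tested, 2 rose against Cre-, Cdk6 and Ccnd2, and none fell, where 2.03% and 1.57% of all genes did. Cdk6, a kinase partner of the D-type cyclins, lay at 7.71, 9.35 and 7.70 CPM in Cre-, 10.4, 16.3 and 8.67 CPM in tHet, and 51.9, 47.7 and 36.7 CPM in Tet tcKO. Every Tet tcKO library was above every other, with log2 fold changes of 2.38 against Cre- (95% interval 1.84 to 2.93, limma adjusted p = 5.55e-06) and 1.93 against tHet (limma adjusted p = 8.23e-05). Ccnd2, a D-type cyclin, lay at 4.42, 3.24 and 3.11 CPM in Cre-, 7.49, 7.79 and 14.4 CPM in tHet, and 22.5, 15.6 and 9.69 CPM in Tet tcKO. It rose against Cre- by 1.94 (1.26 to 2.63, limma adjusted p = 0.000657), but its Tet tcKO libraries overlapped with tHet, where the log2 difference was 0.65 (limma adjusted p = 0.324). Without the library Tet tcKO 1 its adjusted p against Cre- was 0.0115 and the call was lost. Cdk6 overlaps exons of Gm17590, and Ccnd2 those of Gm43126 and 9330179D12Rik, on the opposite strand.

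Against Cre-, 1.57% of all genes were called lower. Among other replication genes, 38 of 39 were tested and 1 fell, Mcm10, a factor that joins the helicase to the polymerases. It lay at 2.24, 7.25 and 5.67 CPM in Cre-, 6.70, 6.86 and 5.26 CPM in tHet, and 0.238, 1.71 and 1.08 CPM in Tet tcKO. All Tet tcKO libraries were below all others, by -1.89 against Cre- (95% interval -2.76 to -1.01, limma adjusted p = 0.00672) and -2.29 against tHet (limma adjusted p = 0.00149). The call against Cre- was lost under 9 of 20 alternatives, edgeR among them, and the call against tHet under 5. Of other mitosis genes, 33 of 44 were tested and 1 fell, Spc25, a subunit of the kinetochore NDC80 complex. It lay at 297, 152 and 338 CPM in Cre-, 27.7, 171 and 391 CPM in tHet, and 12.8, 46.1 and 24.9 CPM in Tet tcKO. The log2 fold change of Spc25 was -3.31 against Cre- (-4.57 to -2.05, limma adjusted p = 0.00136), a call lost under 7 of 20 alternatives, and its tHet libraries overlapped with both other genotypes. DESeq2 also called Kif22, a chromosome-arm kinesin of the same list, higher against Cre-.

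No gene was called against Cre- by limma or edgeR among 9 tested inhibitors and pocket proteins, 15 tested cell cycle transcription factors or 37 tested clustered histone genes, and DESeq2 called none of them either. Over all genes limma called 3.6%. At an unadjusted p under 0.05 these lists had 0, 1 and 2 genes higher and 0, 0 and 1 lower, where 8.59% and 7.47% of all genes were. Against tHet, H1f2, a linker histone gene, was called lower (log2 fold change -1.90, limma adjusted p = 0.00334), as were 1.61% of all genes. It lay at 170, 87.6 and 463 CPM in tHet and 52.7, 52.3 and 47.1 CPM in Tet tcKO, and the call was lost under 8 of 20 alternatives, both count tools included. Median log2 differences from Cre- were -0.02, 0.12, 0.10, -0.06, -0.01 and -0.12 for the inhibitors, the further cyclins and kinases, the transcription factors, the replication, the mitosis and the histone lists. The lists and the members were chosen with results of these data known.

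**Figure D4:**
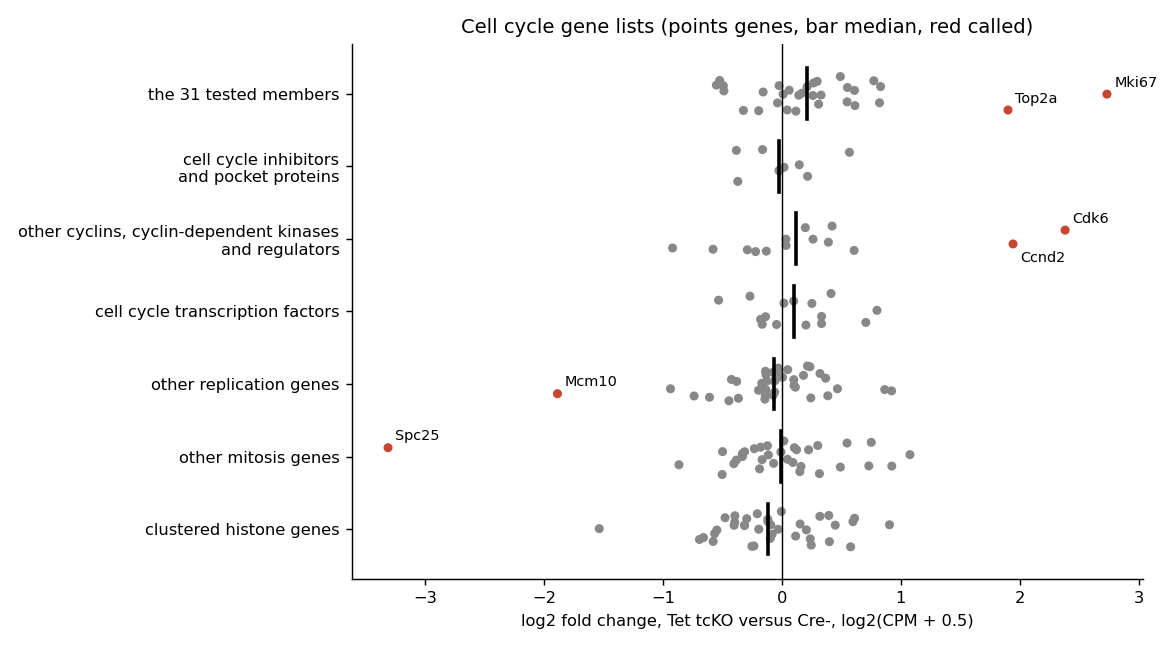
Log2 fold change of Tet tcKO against Cre- (horizontal axis, log2(CPM + 0.5) scale) for the tested members and 6 lists of other cell cycle genes, with a point for each gene, a bar at each list's median and called genes in red. The 6 called genes are Mki67, Top2a, Cdk6 and Ccnd2, which were higher, and Mcm10 and Spc25, which were lower.

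Markers of other cells that could carry such transcripts were read beside these levels, with limma calls in Tet tcKO against Cre- (2.03% of all genes higher, 1.57% lower). Of 20 progenitor markers, several of which mature interneurons and Müller glia also express, 18 were tested and 3 rose against Cre- (Dll1, Notch1 and Atoh7), with a median log2 difference of 0.52. edgeR called Dll1 and Notch1 and not Atoh7, which passed the filter only through the Tet tcKO libraries. DESeq2 called 5 higher, where it called 1145 of all 21330 genes. At an unadjusted p under 0.05 against Cre-, 10 were higher and 1 was lower, where 8.59% and 7.47% of all genes were. Against tHet, limma and edgeR both called Dll1, Notch1 and Atoh7 higher, and limma called 1.39% of all genes higher. Dll1, a Notch ligand of cells leaving the cycle, lay at 11.1, 11.5 and 11.003 CPM in Cre-, 11.2, 11.8 and 11.04 CPM in tHet, and 45.3, 36.5 and 27.4 CPM in Tet tcKO. Atoh7, a factor of early neurogenesis, lay at 0 to 0.473 CPM in the controls and at 2.02, 1.71 and 1.32 CPM in Tet tcKO. The summed progenitor level ran from 851 to 1006 CPM over the Cre- libraries, from 834 to 985 CPM over tHet and from 974 to 1383 CPM over Tet tcKO, and Olig2 held at most 3 reads in any library. With CT010467.1 removed the Tet tcKO sums were 1365 to 1383 CPM, above the 835 to 1023 CPM of all other libraries. For Dll1, Atoh7 and the sum, tHet overlapped with Cre-.

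Of 12 microglia markers, all tested, 1 rose against Cre- (Cx3cr1, log2 fold change 1.31, limma adjusted p = 0.00935), with a median of 0.50, and edgeR called none. Their summed level was 31.2 to 39.6 CPM in Cre-, 39.03 to 51.0 in tHet and 43.0 to 82.6 in Tet tcKO, with no defining marker at 0. Without CT010467.1 the Tet tcKO sums were 60.3 to 82.6 CPM, above all other libraries (at most 53.0 CPM), and with TMM scaling they were 54.1 to 77.9 CPM and overlapped with tHet (at most 56.4 CPM). Endothelial markers (8 tested, 0 higher and Flt1 lower) summed to 265 to 275, 212 to 260 and 204 to 323 CPM in Cre-, tHet and Tet tcKO. Their median log2 difference in Tet tcKO was 0.55 against Cre-, with 6 above 0 and 2 below, and 0.82 against tHet. At an unadjusted p under 0.05 against Cre-, 4 were higher and 1 was lower, where 8.59% and 7.47% of all genes were. Pericyte markers (6 tested, 0 called) summed to 65.7 to 101, 84.0 to 124 and 90.3 to 188 CPM, with a median of 0.15. Without CT010467.1 the pericyte sum in Tet tcKO was 118 to 188 CPM, above Cre- and overlapping with tHet. With TMM scaling it was 103 to 177 CPM and overlapped with Cre- too, at 61.2 to 112 CPM. Of 8 Müller glia markers 1 was higher and 2 were lower, with a median of -0.31. Of 4 astrocyte markers 0 were called, with a median of 0.84 against Cre- and 0.03 against tHet. At an unadjusted p under 0.05 against Cre-, 3 astrocyte markers were higher and 0 were lower. Among 8 rod markers 7 were lower, and their sum was 3312 to 11283 CPM in Tet tcKO against at least 28625 CPM elsewhere. Among 8 cone markers 5 were higher and 1 was lower. Of 7 tested pigment epithelium and ciliary body markers 2 were higher (Optc and Col9a1) and 1 was lower (Rpe65). In tHet against Cre-, limma and DESeq2 also called Optc and Col9a1 higher, and edgeR called neither. The list summed to 69.3 to 187 CPM in Cre-, 275 to 425 in tHet and 281 to 342 in Tet tcKO, so both Cre-positive genotypes lay above Cre-. Of 5 lens markers 0 were called. Of 4 erythrocyte markers limma and edgeR called 0 and DESeq2 called 2 lower (Hba-a1 and Hbb-bs), where DESeq2 called 1145 of all 21330 genes. All 4 lay below Cre- in every Tet tcKO library, as did 9.6% of all tested genes. The part of any of these cell types in the levels of Mki67 and Top2a was not tested.

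**Figure D5:**
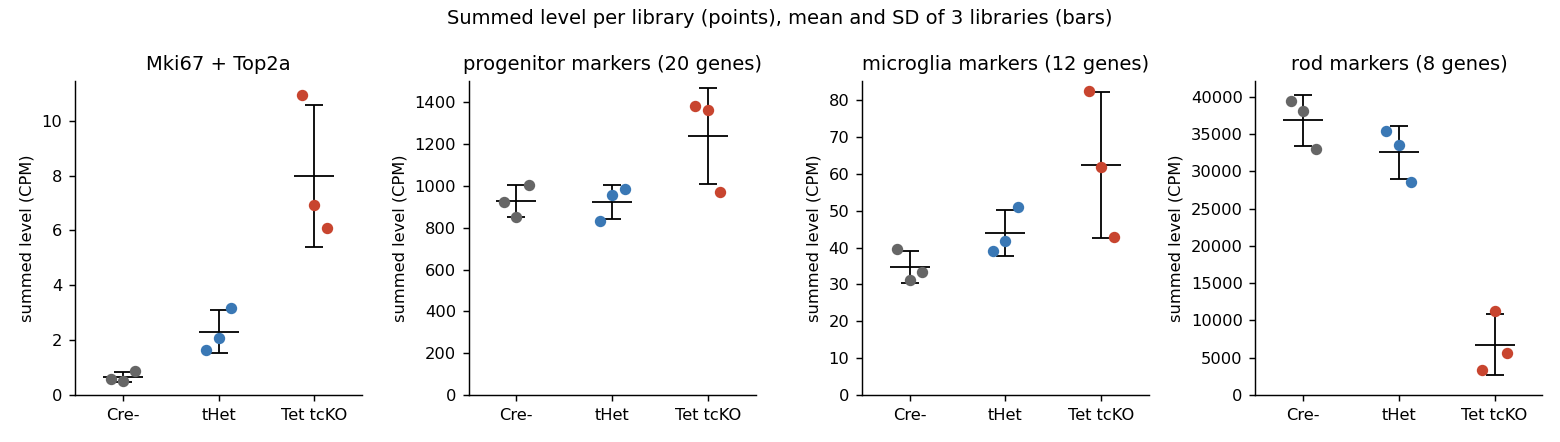
Summed level in CPM (vertical axis, from 0) of Mki67 and Top2a, of 20 progenitor, 12 microglia and 8 rod markers in each library, with bars for the mean and SD of the 3 libraries of a genotype. Mki67 and Top2a together lie at 0.509 to 0.878 CPM in Cre-, 1.66 to 3.17 in tHet and 6.08 to 10.9 in Tet tcKO, and the rod sum is lowest in Tet tcKO.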

How the data were processed

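RNA from whole retinas was depleted of ribosomal RNA, made into stranded libraries, sequenced as 1 pool, trimmed with Trim Galore 0.6.7, aligned to mm10 with STAR 2.7.0f and counted with HTSeq 0.11.2, per the submitters' processing notes and the study's methods. Which annotation was counted, and how strand and overlaps were handled, is not given in the sources used here. The authors deposited CPM values divided by each library's total on genes, and columns of their own comparisons, which were not used.

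Each CPM value above 0 equalled a whole number of reads (100% within 0.001), so the reads were recovered. No libraries were duplicates (chi-square per degree of freedom of 13.3 or more between replicates). The fit kept genes that reached 0.5 CPM in 3 or more of the 9 libraries. Their log2(CPM + 0.5) values were modelled by limma 3.58.1 under R 4.3.3 (lmFit, then eBayes with trend), all 3 genotypes in 1 fit, with Benjamini-Hochberg adjustment over 21330 genes. Fold changes are on the log2(CPM + 0.5) scale, which understates those of low genes. Intervals are at 95%. With 3 libraries against 3, an exact permutation test cannot go below p = 0.1, so none was used. Alternatives were other pseudocounts, filters and scalings, edgeR 4.0.16 and DESeq2 1.42.0 on recovered reads (744 and 1145 genes called in Tet tcKO against Cre-, where limma called 768), a replicate block and leaving out each library. On simulated reads for Tet tcKO against Cre-, limma recovered 89.5% of 200 genes changed by 2 on the log2 scale and made 4 false calls among 20761 genes. The changed genes were drawn from those with a mean of at least 1 CPM, so this share does not cover lower members or smaller changes.

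Positions and exon lengths are from GENCODE release 21 for mouse on GRCm38, which held 55141 of the 55487 identifiers. Members, lists and tests were chosen with earlier results of these data known. Values in every library are given for members called or with adjusted p under 0.05, for Mki67, Top2a, Ccnd1, Pcna, Ccnb1 and Cdk1, and for the most and least abundant member of each role group (by its range where the libraries are similar), and for called genes of the other lists. One marker gene of progenitor cells is counted in its list but is not reported here by name.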

Additional observations from a re-analysis of the deposited data

How the results depend on the processing

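Mki67 was called higher against Cre- under all 20 alternatives (log2 fold change 2.21 to 3.87), and Top2a under 19 of 20 (1.41 to 3.11), so the count of members called against Cre- was 2 under all settings but no filter on low values, where it was 1. Leaving out any 1 library left that count at 2. Against tHet, where no member was called, 1 was called with a pseudocount of 1 CPM, with TMM scaling and with only the 6 libraries compared, and 2 were called without CT010467.1, with DESeq2 and at an adjusted p under 0.05. Leaving out each library in turn gave 0 to 1. With the replicate number as a block, 2 members were called against tHet, and the counts against Cre- were unchanged. Replicate numbers share no animal, and correlations of same-numbered libraries ran from -0.35 to 0.56 with 5 of 9 over 0.1, so the numbers were not taken as pairs. The count of members called in tHet against Cre- was 0 under all alternatives. Over all genes, 768 were called in Tet tcKO against Cre-, and 360 to 1145 under the alternatives, the fewest without Tet tcKO 1.

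The log2 difference of Pcna between Tet tcKO and tHet, -0.02, turned to 0.0466 with TMM scaling, 0.12 without CT010467.1, 0.0270 with edgeR and 0.0227 with DESeq2, and leaving out 1 library gave -0.11 to 0.10. The cause was not tested. The mean summed level of the members in tHet was 202 CPM without Ccnd1 against 214 with it, which follows from the gene left out. Cdk6 was called under all 20 alternatives in both comparisons. Depth limits the 8 members below the filter, of which none was called by limma when the filter was dropped.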

Other observations

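Several replication and cycle genes outside the named set had a limma adjusted p under 0.05 without being called, and they are named here after their values were seen. Against Cre-, 4 of 38 tested other replication genes passed that bar, the called Mcm10 among them, and 6.5% of all genes did. Against tHet, 3 of the 14 further cyclins, kinases and regulators did, the called Cdk6 among them, and 5.95% of all genes did. Lig1, the DNA ligase that joins Okazaki fragments, lay at 27.8, 32.8 and 36.0 CPM in Cre-, 39.6, 25.7 and 38.8 CPM in tHet, and 58.5, 60.1 and 57.6 CPM in Tet tcKO, above every other library (log2 difference from Cre- 0.86, limma adjusted p = 0.0192). Rpa1, of the single-strand binding protein, lay at 92.1, 83.3 and 88.5 CPM in Cre-, 60.6, 63.6 and 57.5 CPM in tHet, and 38.2, 62.8 and 39.7 CPM in Tet tcKO (-0.94, limma adjusted p = 0.00964, under the fold threshold). Pola1, the catalytic subunit of polymerase α, lay at 50.5 to 60.1 CPM in the 6 control libraries and 26.2 to 37.5 CPM in Tet tcKO (-0.74 against Cre-, limma adjusted p = 0.0378). Against tHet, Cdc25c, a phosphatase that activates CDK1, had -1.10 (limma adjusted p = 0.0367) and Skp2, which targets the inhibitor p27 for degradation, had -1.01 (limma adjusted p = 0.0456).

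Among the clustered histone genes, H1f2 and H1f4 were the most abundant. The library tHet 3 held 463 CPM of H1f2 and 442 CPM of H1f4, against 87.6 to 170 and 52.2 to 117 CPM in the other tHet libraries. The summed level of the 70 histone genes was 1134 CPM in tHet 3 and 252 to 541 CPM in the other 8 libraries.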
